A study of Mus musculus with 26 samples.

Results

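The genes described here are 10 genes of platelets and megakaryocytes, the large marrow cells that release platelets, read in blood cell progenitors of the mouse. They are Pf4, Ppbp, Itga2b, Itgb3, Gp1bb, Gp5, Gp6, Gp9, Vwf and Cavin2. Every probe set (a group of short probes that reports 1 transcript on the array) annotated to exactly 1 of these symbols was taken, which gave 14 of the 45037 probe sets tested and 10 of the 18193 genes. Of the 14, 11 probe sets of 9 genes lay over 1 log2 unit above the lowest value of the table on at least 3 arrays. The other 3, the Gp6 probe set and a weaker probe set each of Itgb3 and Gp1bb, were not over that mark on any array. A further probe set names Gp1bb together with Septin5, its neighbour on the chromosome, and was left out.

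Platelets carry a set of adhesion receptors that let them stick to a damaged vessel wall and to each other. The GPIb-IX-V complex binds von Willebrand factor, the product of Vwf, and Gp1bb, Gp5 and Gp9 encode parts of it. The integrin made of the products of Itga2b and Itgb3 binds fibrinogen and links platelets to each other, Gp6 encodes a collagen receptor, and Pf4 and Ppbp encode chemokines stored in platelet granules. In the marrow these genes are best known as markers of megakaryocytes, and Itga2b (CD41) and Vwf are also known from studies of stem cells and early progenitors.

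Messenger RNA had been measured on 26 Affymetrix arrays, 1 per sample, in C57/Bl6 males aged 2 month. Bone marrow gave MPPFL- (n = 5), MPPFL+, CMP, GMP and CLP (n = 3 each), and the labels give thymocyte as the source of DN1, DN2 and DN3 (n = 3 each). These abbreviations usually stand for multipotent (MPP), common myeloid (CMP), granulocyte-macrophage (GMP) and common lymphoid (CLP) progenitors and for successive stages of early thymocytes (DN1 to DN3). The labels give no sorting gates, name no treatment or altered allele, and leave unstated whether replicates are different animals, so p-values measure only the spread between these samples, which may be technical. A second label reads MMPFL- and MMPFL+ for the MPP samples and ALP for the CLP samples.

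All values are deposited log2 levels. The lowest value of the table is 2.17, and this floor held between 30.2% and 37.1% of the probe sets of an array. The lowest share was that of CMP replicate 1, against 36.9% and 34.8% on the other CMP arrays. That array also had the highest median of all, 3.05. Each of the 26 arrays correlated best with its own population. Flt3, the receptor tyrosine kinase of early multipotent and lymphoid progenitors, averaged 13.31 ± 0.29 (SD, n = 3) in MPPFL+ and 10.99 ± 0.39 (SD, n = 5) in MPPFL-. Il7r, the interleukin 7 receptor of lymphoid progenitors, lay at 13.2 to 13.3 in CLP, and Mpo, the granule enzyme of the granulocyte line, was highest in GMP at 16.1 on each array. Il2ra (CD25), which marks DN2 and DN3 thymocytes, averaged 13.14 and 13.16 there. The label male did not match 4 thymic libraries: Xist, which is transcribed from an inactive X chromosome, read 12.21 and 13.59 in DN1 replicates 1 and 3 and 12.99 and 6.30 in DN2 replicates 2 and 3. DN1 against CLP, DN2 against DN1 and DN3 against DN2 were also fitted without these 4 arrays. Other comparisons with a thymic population, and the orders of levels, use all arrays. The mean of the poly-A control transcripts lay at 3.63 to 5.09 in MPPFL-, MPPFL+ and CLP, at 8.59 to 9.34 in CMP, at 7.22 to 7.50 in GMP, at 2.46 to 2.56 in DN1 and DN2 and at 9.87 to 11.7 in DN3. A difference of CMP, GMP or DN3 from another population, or of DN1 from CLP, and whatever set those controls cannot be told apart. The actin 3′ minus 5′ signal, given with Itga2b, did not overlap between MPPFL- and MPPFL+, CMP or CLP, or between CMP and GMP. Differences between these populations and RNA length, of which that signal is a sign, cannot be told apart by the design either.

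Promoter sequences of 8 of the 10 genes were found in the RefSeq table of build GRCm38.p6, from 250 bases before to 50 bases after each start of transcription. They were searched on both strands for AGATAA or TGATAA or AGATAG or TGATAG, called GATA matches after the factors that bind such sites, and for AGGAAG or CGGAAG, called ETS matches. The motifs of these classes do not overlap in the promoters shown. The 3 promoters holding both classes and that of Ppbp, the neighbour of Pf4 on chromosome 5, are printed 5′ to 3′ on the strand of the gene, with matches on either strand in capitals. They are Pf4 at chr5:90772185-90772484 (plus strand), Gp5 at chr16:30310732-30311031 (minus), Gp1bb at chr16:18622354-18622653 (minus) and Ppbp at chr5:90768268-90768567 (plus).
Pf4: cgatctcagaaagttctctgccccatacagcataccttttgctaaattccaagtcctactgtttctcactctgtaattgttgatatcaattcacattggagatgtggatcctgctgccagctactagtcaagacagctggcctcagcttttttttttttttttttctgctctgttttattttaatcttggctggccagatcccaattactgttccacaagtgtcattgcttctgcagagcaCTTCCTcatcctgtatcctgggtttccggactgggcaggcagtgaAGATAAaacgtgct
Gp5: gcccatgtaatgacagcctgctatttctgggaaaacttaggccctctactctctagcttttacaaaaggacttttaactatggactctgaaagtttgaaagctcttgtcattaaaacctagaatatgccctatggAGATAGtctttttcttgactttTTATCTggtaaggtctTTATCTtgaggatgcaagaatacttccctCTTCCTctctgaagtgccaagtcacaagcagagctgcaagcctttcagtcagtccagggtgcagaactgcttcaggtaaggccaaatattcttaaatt
Gp1bb: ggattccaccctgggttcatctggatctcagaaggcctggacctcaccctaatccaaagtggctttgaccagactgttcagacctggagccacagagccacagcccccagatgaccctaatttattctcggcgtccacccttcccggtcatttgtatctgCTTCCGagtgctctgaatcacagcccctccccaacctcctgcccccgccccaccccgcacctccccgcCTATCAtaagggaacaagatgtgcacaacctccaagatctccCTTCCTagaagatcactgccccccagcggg
Ppbp: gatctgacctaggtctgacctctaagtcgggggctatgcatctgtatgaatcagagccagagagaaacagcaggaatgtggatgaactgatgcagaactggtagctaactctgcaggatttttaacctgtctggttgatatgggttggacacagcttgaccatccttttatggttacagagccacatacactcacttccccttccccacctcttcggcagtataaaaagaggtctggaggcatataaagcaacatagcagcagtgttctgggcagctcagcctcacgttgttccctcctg

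Counted from 1 at the start of transcription, Pf4 held AGATAA at 37 to 42 and AGGAAG on the opposite strand at -9 to -4. Gp5 held 3 GATA matches, between -115 and -72, and an ETS match at -48 to -43. Gp1bb held a GATA match at -22 to -17 and ETS matches at -90 to -85 and at 21 to 26. The Ppbp promoter held no match of either class. Of the others, Itga2b (ETS at -125 to -120 and -43 to -38), Gp9 and Cavin2 held ETS matches only, and Gp6 a GATA match only. A GATA match was thus present in 4 of 8 promoters against 29.8% of all 32851 promoters, an ETS match in 6 of 8 against 46.5%, both in 3 of 8 against 12.6%, and a RUNX match (TGTGGT or TGCGGT) in 1 of 8, that of Gp9, against 22.4%. A match of letters is a description and does not show that a factor binds.

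Across the 8 populations the platelet genes were highest in CMP and next in MPPFL-. All 11 probe sets above the floor had their highest mean in CMP, and 10 of the 11 had their second in MPPFL-, the exception being Itgb3, whose second was GMP. The share of all probe sets with this order was not counted. For Ppbp the means of MPPFL- (4.14) and GMP (4.13) were nearly equal. Gp1bb, Gp5 and Cavin2 (1416778_at and 1416779_at) passed the floor filter only through MPPFL- and CMP arrays, which partly fixed their order. All 11 lay over 1 log2 unit above the floor on every CMP array, and all but Ppbp and the dimmer Cavin2 probe sets did so on every MPPFL- array. In MPPFL+ 6 of the 11 lay within 1 log2 unit of the floor on all 3 arrays, in GMP 4, and in CLP, DN1, DN2 and DN3 6 each. On bulk RNA, fewer cells of a type and less RNA per cell cannot be told apart.

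**Figure D1:**
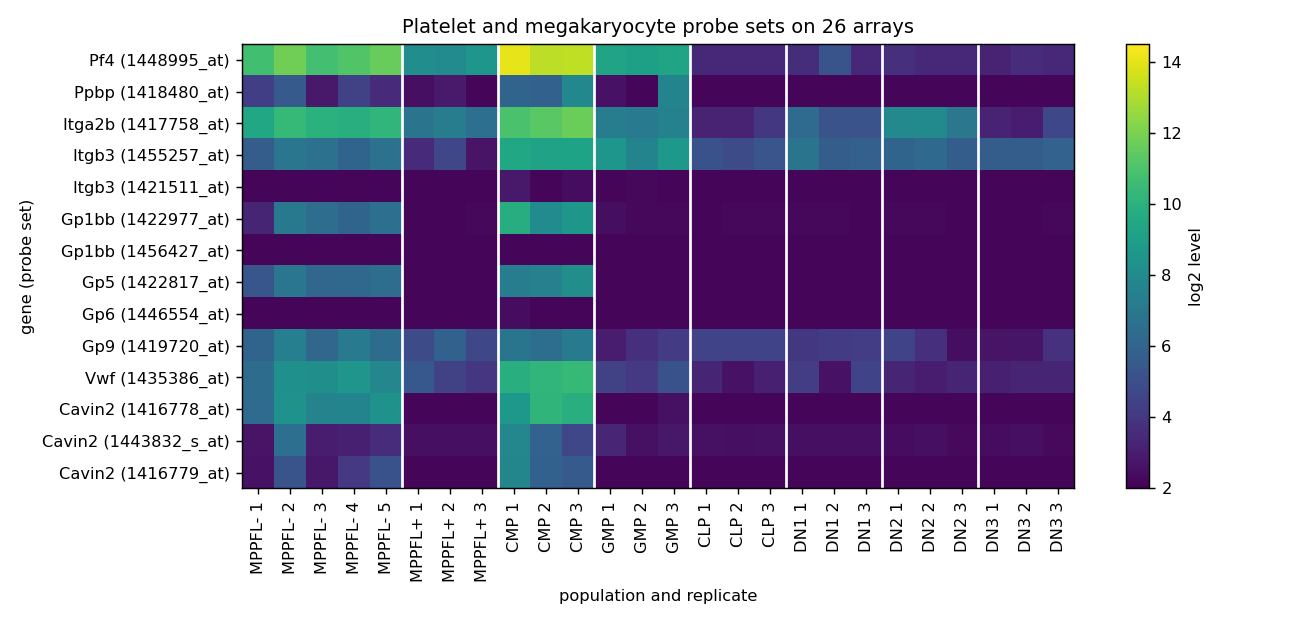
Log2 level (colour) of the 14 probe sets (rows) on the 26 arrays (columns, by population and replicate, white lines between populations). Bright cells concentrate in MPPFL- and CMP, Pf4 and Itga2b keep intermediate levels in MPPFL+ and GMP, and the Gp6 row and the weaker Itgb3 and Gp1bb rows stay near the floor of 2.17.

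MPPFL+ was compared with MPPFL- for the split within the multipotent compartment. Of the 14 probe sets, 9 (8 genes) were lower in MPPFL+ at an adjusted p under 0.05 (limma, Benjamini-Hochberg over all probe sets) and 0 were higher. Over all probe sets 7.44% were lower by the same rule. The median difference over the 14 was -2.29 on the log2 scale, against 0 over all probe sets. In 10 probe sets the arrays of the 2 populations did not overlap, against 10.1% of all probe sets in that direction. With an exact two-sided permutation test over the samples, 10 of the 11 probe sets above the floor gave p = 0.0357, the smallest that 5 against 3 arrays can give, and Ppbp gave 0.0714. These p-values are not adjusted. Arrays that do not overlap always give that smallest p, so this test restates the count before it. Under alternative settings 7 to 9 of the probe sets passed.

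CMP was compared with MPPFL- for entry into the myeloid branch. Here 11 probe sets (8 genes) rose, against 8.54% of all probe sets, and 0 fell. The median difference was 2.09, and in 9 probe sets the arrays did not overlap, against 7.91%. One of the 11 is the weaker Itgb3 probe set near the floor. With only these populations in the fit, 4 of the 11 passed: Pf4, Itga2b, Vwf and the brighter Itgb3 probe set. Gp5 (limma adjusted p = 0.0509), Gp1bb (0.0868), Ppbp (0.072), all Cavin2 probe sets (0.079 to 0.243) and the weaker Itgb3 probe set (0.207) did not. With arrays of like control transcript levels as a random block 8 of the 11 passed.

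GMP was compared with CMP, and CLP with MPPFL-, for the granulocyte-macrophage and lymphoid branches. From CMP to GMP 10 probe sets (8 genes) fell, against 6.29% of all probe sets, with a median of -3.63, and in 10 the arrays did not overlap, against 10.5%. From MPPFL- to CLP 9 probe sets (8 genes) fell, against 11.8%, with a median of -2.02, and in 11 the arrays did not overlap, against 14.8%. No member rose in either comparison. These 4 comparisons share the MPPFL- or the CMP arrays, so their counts are not independent of each other.

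**Figure D2:**
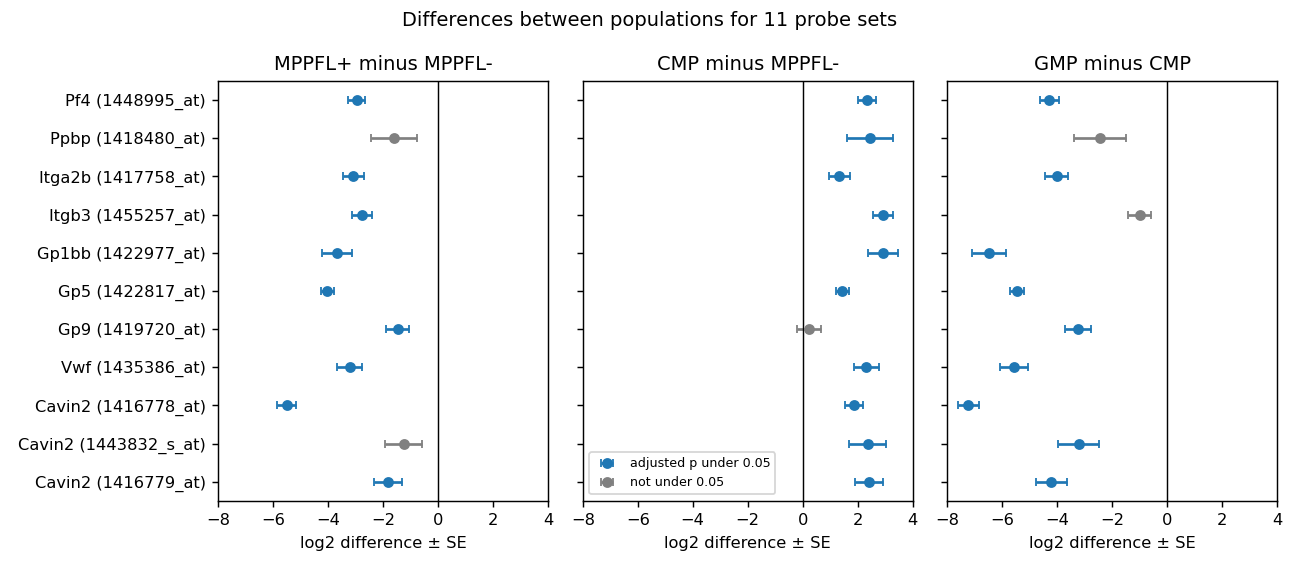
Log2 differences with standard errors (limma) for the 11 probe sets above the floor, in MPPFL+ minus MPPFL-, CMP minus MPPFL- and GMP minus CMP, with blue points for an adjusted p under 0.05 and grey points for the rest. All points lie left of 0 in the outer panels and right of 0 in the middle, where Gp9, at 0.23, sits nearest to 0.

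Pf4 (platelet factor 4, a granule chemokine, probe set 1448995_at) lay far above the floor in all 4 myeloid and multipotent populations and near its low value in CLP and most thymic arrays. It read 10.74, 11.78, 10.77, 11.10 and 11.57 in MPPFL-, 8.12, 8.03 and 8.55 in MPPFL+, 14.02, 13.28 and 13.31 in CMP and 9.28, 9.13 and 9.32 in GMP. These 4 populations did not overlap, and each step of the order CMP, MPPFL-, GMP, MPPFL+ passed the test. Pf4 fell 7.78-fold from MPPFL- to MPPFL+ (log2 difference -2.96, SE 0.32, limma adjusted p = 2.26e-06). It rose 5.07-fold from MPPFL- to CMP (2.34, SE 0.32, adjusted p = 1.83e-05) and fell 19.6-fold from CMP to GMP (-4.29, SE 0.36, adjusted p = 4.7e-08). In CLP it sat at a recurring low value of 3.44 on all 3 arrays, a drop from MPPFL- of at least 216-fold (adjusted p = 1.18e-12). The thymic populations lay at 3.23 to 3.70 except for DN1 replicate 2, which read 5.26. Without the 4 arrays with Xist, DN1 is that array alone, its spread is taken from the other groups, and Pf4 then passed against CLP (1.82, adjusted p = 0.0018) and fell in DN2 (-1.56, adjusted p = 0.0464). With all arrays the DN1 and CLP means differed by 0.67 (adjusted p = 0.218, or 0.0464 with the actin covariate described for Itga2b).

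Ppbp (pro-platelet basic protein, the precursor of another granule chemokine, 1418480_at) lies next to Pf4 on chromosome 5, and it was within 1 log2 unit of the floor in MPPFL+, CLP and the thymus. Its values were 4.32, 5.54, 2.85, 4.46 and 3.52 in MPPFL-, 2.53, 2.90 and 2.17 in MPPFL+ and 6.03, 5.90 and 7.82 in CMP. CMP lay above all MPPFL- arrays, whereas MPPFL- and MPPFL+ overlapped. The rise into CMP was 5.44-fold (2.44, SE 0.85, adjusted p = 0.0423). This call is weak: it was lost without any of MPPFL- replicates 1, 3, 4 and 5 and CMP replicates 1 and 3, with adjusted p-values of 0.0562 to 0.192. It was also lost with the actin covariate (0.192), the replicate number as a block (0.148), array weights (0.053) and the control transcript block (0.264). The difference between MPPFL+ and MPPFL- was -1.60 and did not pass (adjusted p = 0.283). In GMP the values were 2.61, 2.17 and 7.62, so replicate 3 stood with the CMP arrays. GMP minus CMP was -2.45 (adjusted p = 0.0959) with that array, or 0.0382 among the probe sets over the dim filter alone, and -4.19 (adjusted p = 4.57e-05) without it. On the same GMP array 2 genes chosen after their values were seen also stood up: Tubb1, the platelet tubulin, read 6.17 against 2.17 on each of the others, and Clec1b, the podoplanin receptor, 3.41 against 2.20. Treml1, a granule receptor, stayed at 2.18 there and Gata1 read 5.94, between the other GMP arrays. In CLP and the thymic populations Ppbp was at or within 0.1 of the floor, and CLP minus MPPFL- was -1.96 (adjusted p = 0.117, or 0.0465 with the dim filter).

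The integrin pair differed from each other. Itga2b (the alpha chain, CD41, 1417758_at) read 9.46, 10.36, 9.99, 9.87 and 10.21 in MPPFL-, 6.81, 7.31 and 6.57 in MPPFL+, 10.93, 11.31 and 11.69 in CMP and 7.29, 7.09 and 7.49 in GMP. CMP stood above all MPPFL- arrays and these above all MPPFL+ and GMP arrays, and MPPFL+ and GMP overlapped. It fell 8.47-fold from MPPFL- to MPPFL+ (-3.08, SE 0.37, adjusted p = 8.21e-06) and 16.3-fold from CMP to GMP (-4.02, SE 0.41, adjusted p = 9.03e-07). The rise from MPPFL- to CMP, 2.52-fold (1.33, SE 0.37, adjusted p = 0.0111), was lost without CMP replicate 3 (adjusted p = 0.0539), with the actin 3′ minus 5′ signal as a covariate (adjusted p = 0.188) and with the control transcript block (adjusted p = 0.179). The actin 3′ minus 5′ signal, a sign of RNA length, ran from 3.12 to 4.08 in MPPFL- and 2.55 to 2.92 in MPPFL+. In CMP it ran from 1.68 to 2.96, in GMP from 1.47 to 1.52 and in CLP from 2.51 to 2.84. MPPFL- thus did not overlap MPPFL+, CMP or CLP, and CMP did not overlap GMP. The part of this signal in the other differences was not tested beyond that covariate.

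Itga2b was also the only member called between neighbouring thymic stages with all arrays in the fit. Its values were 3.26, 3.26 and 4.05 in CLP, 6.35, 5.21 and 5.18 in DN1, 7.89, 7.92 and 6.95 in DN2 and 3.26, 3.00 and 4.72 in DN3. The level thus climbed from CLP over DN1 to DN2, with no overlap, and DN3 lay back at the level of CLP. DN1 exceeded CLP 4.16-fold (2.06, SE 0.41, adjusted p = 9.38e-04, with 10.2% of all probe sets called higher), and DN2 exceeded DN1 4.03-fold (2.01, SE 0.41, adjusted p = 0.00512, with 2.74% higher). DN3 fell 15.2-fold below DN2 (-3.93, SE 0.41, adjusted p = 6.01e-07, with 11.3% lower). Without the 4 arrays with Xist the 3 differences were 1.69 (adjusted p = 0.0372), 2.68 (0.0182) and -4.23 (4.39e-05), with 1 array left in each of DN1 and DN2. The DN1 and DN2 steps were lost when only the pair of populations was fitted (adjusted p = 0.0606 and 0.259), and the DN2 step also with array weights (0.0522). In the order of all populations DN2, at 7.59, came next after MPPFL-, and neither its difference from GMP (0.30, adjusted p = 0.832) nor that from MPPFL+ (0.69, adjusted p = 0.279) passed. Of the other platelet genes above the floor, Ppbp, Gp1bb, Gp5 and all Cavin2 probe sets were within 1 log2 unit of the floor on all DN2 arrays, and Pf4 lay there at 3.44 to 3.70.

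Itgb3 (the beta chain, CD61, which also pairs with the alpha V chain, 1455257_at) read 5.68, 6.89, 6.64, 6.03 and 6.72 in MPPFL-, 3.55, 4.66 and 2.66 in MPPFL+, 9.48, 9.21 and 9.24 in CMP and 8.59, 7.66 and 8.65 in GMP. MPPFL+ was the lowest of all 8 populations and GMP lay close to CMP. The gene fell 6.81-fold from MPPFL- to MPPFL+ (-2.77, SE 0.37, adjusted p = 2.96e-05) and rose 7.56-fold to CMP (2.92, SE 0.37, adjusted p = 8.76e-06). GMP minus CMP was -1.01 and did not pass (adjusted p = 0.12), and GMP exceeded MPPFL- by 1.91 (adjusted p = 3.87e-04). CLP read 5.16, 4.90 and 5.30, below all MPPFL- arrays (-1.27, adjusted p = 0.0161). This call was lost without CLP replicate 2 (adjusted p = 0.0671) and with quantile normalization (0.0888). It was also lost with the replicate number as a block (0.0668) and among MPPFL-, MPPFL+ and CLP alone (0.0764). DN1, DN2 and DN3 averaged 6.10, 5.99 and 5.77. DN1 minus CLP was 0.98 (adjusted p = 0.11) and 0.55 without the arrays with Xist (adjusted p = 0.805), and with all arrays it passed with the dim filter (0.0496) and with values under 4 set to 4 (0.0437). No neighbouring pair from MPPFL- (6.39) down to CLP (5.12) in the order of levels passed. MPPFL+ lay below CLP (log2 difference -1.50, adjusted p = 0.048). Over the 8 population means the Pearson correlation of Itga2b with Itgb3 was 0.587, lower than that of Itga2b with each of the other 7 members compared, which lay between 0.760 and 0.884. The weaker Itgb3 probe set (1421511_at) reached 2.84 at most, and its calls in CMP against MPPFL- (0.31, adjusted p = 0.00746) and in GMP against CMP (-0.28, adjusted p = 0.0382) concern values near the floor. The former was 0.13 without CMP replicate 1. The latter was lost without CMP replicate 1 or any GMP replicate (adjusted p = 0.0552 to 0.126) and was -0.44 without CMP replicate 2.

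**Figure D3:**
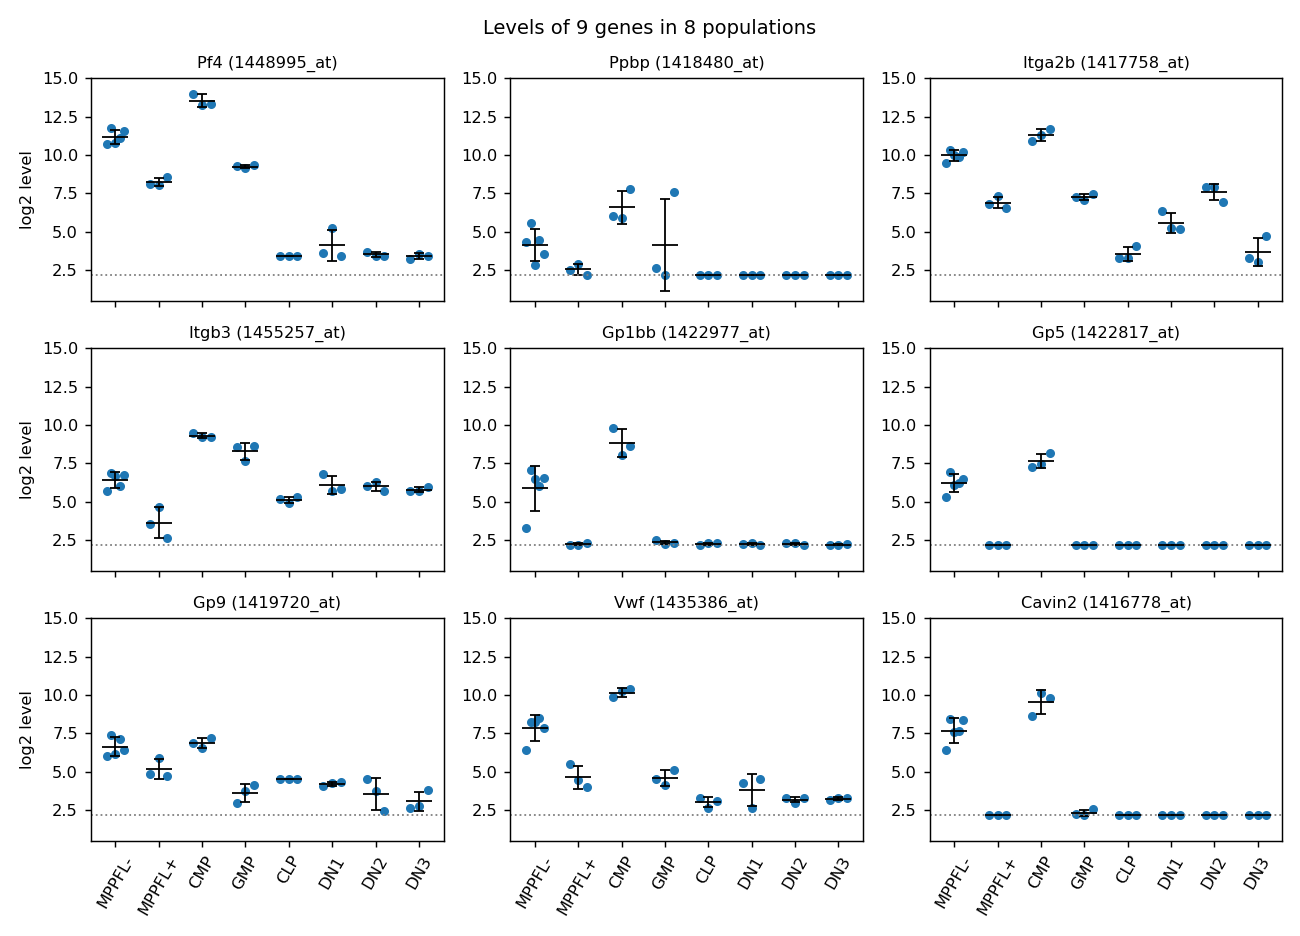
Log2 levels of the 9 genes above the floor (for Cavin2 the probe set with the highest mean) in 8 populations: points are arrays, black bars the mean ± SD, and the dotted line the floor of 2.17. Gp5, Gp1bb and Cavin2 lie over 1 log2 unit above the floor only in MPPFL- and CMP, whereas Itgb3 is high in CMP and GMP and Itga2b has a second peak in DN2.

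Of the genes of the von Willebrand factor receptor, Gp5 and Gp1bb were over 1 log2 unit above the floor only in MPPFL- and CMP. Gp5 (1422817_at) read 5.33, 6.92, 6.10, 6.19 and 6.46 in MPPFL- and 7.29, 7.45 and 8.18 in CMP, and stayed within 0.1 of its recurring low value of 2.18 on every array of the other 6 populations. There was no overlap between MPPFL-, CMP and the others. Against MPPFL- it was at least 16.3-fold lower in MPPFL+ (adjusted p = 6.75e-10) and in CLP (adjusted p = 1.24e-10), it rose 2.72-fold into CMP (1.44, SE 0.23, adjusted p = 9.3e-05), and it was at least 44.2-fold lower in GMP than in CMP (adjusted p = 8.66e-12). Bounds of this kind set a mean against a population whose arrays all lie at or near the low end, where the measured level has no meaning. The Gp5 rise into CMP was lost with only MPPFL- and CMP in the fit (limma adjusted p = 0.0509).

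Gp1bb (1422977_at) read 3.31, 7.04, 6.44, 6.02 and 6.57 in MPPFL-, 9.80, 8.01 and 8.61 in CMP, and at most 2.46 elsewhere. MPPFL- replicate 1 stood well below the other 4 arrays, yet above every array of MPPFL+, GMP, CLP and the thymus. Gp1bb was at least 12.7-fold lower in MPPFL+ than in MPPFL- (adjusted p = 9.93e-05), rose 7.63-fold into CMP (2.93, SE 0.55, adjusted p = 4.8e-04), and was at least 88.9-fold lower in GMP than in CMP. The rise into CMP was lost with only MPPFL- and CMP in the fit (limma adjusted p = 0.0868). The other Gp1bb probe set (1456427_at) was at the floor on all 26 arrays.

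Gp9 (1419720_at) behaved less sharply. Its values were 6.04, 7.41, 6.12, 7.12 and 6.40 in MPPFL-, 4.85, 5.89 and 4.70 in MPPFL+ and 6.84, 6.51 and 7.18 in CMP. MPPFL- and CMP overlapped, with a difference of 0.23 (SE 0.43, adjusted p = 0.962). All MPPFL+ arrays lay below the lowest MPPFL- array, replicate 2 (5.89) only just. The fall to MPPFL+ was 2.77-fold (-1.47, SE 0.43, adjusted p = 0.0234). This call was lost without MPPFL- replicate 2 or 4 or MPPFL+ replicate 1 or 3 (adjusted p = 0.0581 to 0.109). It was also lost with quantile normalization (0.0609), the actin covariate (0.084), the replicate number as a block (0.121) and only these populations in the fit (0.0851). In GMP Gp9 read 2.95, 3.71 and 4.15, 9.47-fold below CMP (-3.24, adjusted p = 7.16e-05), and in CLP it read 4.53 to 4.54, 4.24-fold below MPPFL- (-2.08, adjusted p = 0.00106). The thymic arrays lay between 2.45 and 4.53, and no neighbouring pair of populations from MPPFL+ downwards passed. Pairs further apart differed more, and all MPPFL+ arrays lay above all GMP and thymic arrays. MPPFL+ exceeded GMP by 1.55, DN2 by 1.59 and DN3 by 2.09, and CLP exceeded DN3 by 1.48. DN2 minus DN1 was -0.63 with all arrays and 0.29 without those with Xist, and neither passed. Gp6 (1446554_at), the collagen receptor, was at or within 0.1 of the floor in 7 populations and read 2.42 at most in CMP, so no expression was measurable with this probe set. Its CMP minus MPPFL- difference of 0.09 (adjusted p = 0.0752) passed without CMP replicate 2 or 3 (0.13 and 0.12), and its GMP minus CMP difference likewise, at this level a matter of the floor.

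Vwf (the adhesive ligand of that receptor, 1435386_at) read 6.43, 8.26, 8.21, 8.50 and 7.81 in MPPFL-, 5.46, 4.47 and 3.96 in MPPFL+, 9.86, 10.23 and 10.39 in CMP and 4.48, 4.09 and 5.13 in GMP. CMP, MPPFL- and the pair of MPPFL+ and GMP formed 3 separate levels, and MPPFL+ and GMP overlapped (difference 0.06, adjusted p = 1). Vwf fell 9.27-fold from MPPFL- to MPPFL+ (-3.21, SE 0.45, adjusted p = 5.02e-05), rose 4.97-fold into CMP (2.31, SE 0.45, adjusted p = 7.01e-04) and fell 48.2-fold from CMP to GMP (-5.59, SE 0.51, adjusted p = 1.57e-07). In CLP it read 3.27, 2.61 and 3.11, 28.8-fold below MPPFL-. These CLP values lie at or below the recurring low value of the probe set, 3.27, where the size of a fold has little meaning. The thymic arrays lay between 2.61 and 4.53, and DN1 minus CLP was 0.80 with all arrays (adjusted p = 0.327) and 1.40 without DN1 replicate 2 (adjusted p = 0.0489). Without the arrays with Xist, which leaves DN1 replicate 2 alone, it was -0.39 (adjusted p = 1), so its direction rests on which DN1 arrays enter.

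Cavin2, which encodes a coat protein of caveolae (small pits of the cell membrane) found in platelets, had 3 probe sets. The brightest (1416778_at) read 6.38, 8.43, 7.59, 7.63 and 8.36 in MPPFL- and 8.65, 10.16 and 9.83 in CMP, was at the floor on every array of MPPFL+, CLP and the thymus, and reached 2.54 in GMP. It was at least 45.4-fold lower in MPPFL+ (adjusted p = 2.19e-09), rose 3.65-fold into CMP (1.87, SE 0.34, adjusted p = 3.89e-04) and was at least 151-fold lower in GMP than in CMP. Its rise into CMP was lost with only MPPFL- and CMP in the fit (limma adjusted p = 0.079). The other probe sets were dimmer and more spread. In MPPFL- 1416779_at read 2.59, 5.26, 2.82, 4.09 and 5.14 and 1443832_s_at read 2.66, 6.54, 3.01, 3.08 and 3.59. Both had CMP arrays of 4.68 to 7.81 and rose into CMP (2.41, adjusted p = 0.00144, and 2.37, adjusted p = 0.0122). The latter rise was lost without CMP replicate 1 (1.53, adjusted p = 0.119) and with array weights (0.106). It was also lost with the replicate number as a block (0.0825) and with the control transcript block (0.108). The former rise was lost with array weights (0.0546). With only MPPFL- and CMP in the fit both rises were lost (limma adjusted p = 0.243 for the latter and 0.125 for the former). Against MPPFL- the MPPFL+ level of 1416779_at was at least 3.5-fold lower (adjusted p = 0.0201). This call was lost without MPPFL- replicate 5 or MPPFL+ replicate 1 or 2 (adjusted p = 0.0519 to 0.0708) and with values under 4 set to 4 (0.628). It was also lost with the actin covariate (0.176), the replicate number as a block (0.159) and in fits of these populations alone (0.184) or with CLP (0.0976). The probe set 1443832_s_at did not pass (-1.25, adjusted p = 0.284). The 3 probe sets thus gave the same directions but differed in which calls passed.

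The 5 MPPFL- arrays differed among themselves in a way shared by most of the platelet probe sets above the floor. Replicate 1 was the lowest of the 5 in 10 of the 11 probe sets above the floor and replicate 2 the highest in 10 of 11. Over 9303 genes with a mean over 5 in MPPFL-, replicate 1 was lowest for 35.5% and replicate 2 highest for 34.1%. The median deviation from the mean of the 5 arrays was -0.87 in replicate 1 and 0.75 in replicate 2 for the platelet probe sets, against -0.05 and 0.06 over those genes. With 1 probe set per gene the counts were 8 of 9 for each, and after quantile normalization 10 of 11. Gata1, the GATA factor of the megakaryocyte and erythroid lines, was likewise lowest in replicate 1 (6.97 against 8.51 to 9.23) and Cpa3, a mast cell protease, as well (9.65 against 10.96 to 11.09), while Flt3 was highest there (11.64 against 10.69 to 11.04). Replicate 1 was highest for 5 of 11 stem cell markers and replicate 2 lowest for 6 of 11. The wider lists described further below were mixed. Of 19 megakaryocyte regulators, Gata1 among them, replicate 1 was lowest for 7 and highest for 4, and replicate 2 highest for 4. Of 19 platelet receptor and signalling genes, replicate 1 was lowest for 8 and highest for 7, and replicate 2 highest for 2. For 16 granule, enzyme and cytoskeleton genes these counts were 7, 3 and 5. Whether the cells in these samples differed in makeup was not tested. No call of Pf4, Itgb3, Gp5, Vwf or the brightest Cavin2 probe set in MPPFL+ or CMP against MPPFL- was lost on leaving out either array.

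**Figure D4:**
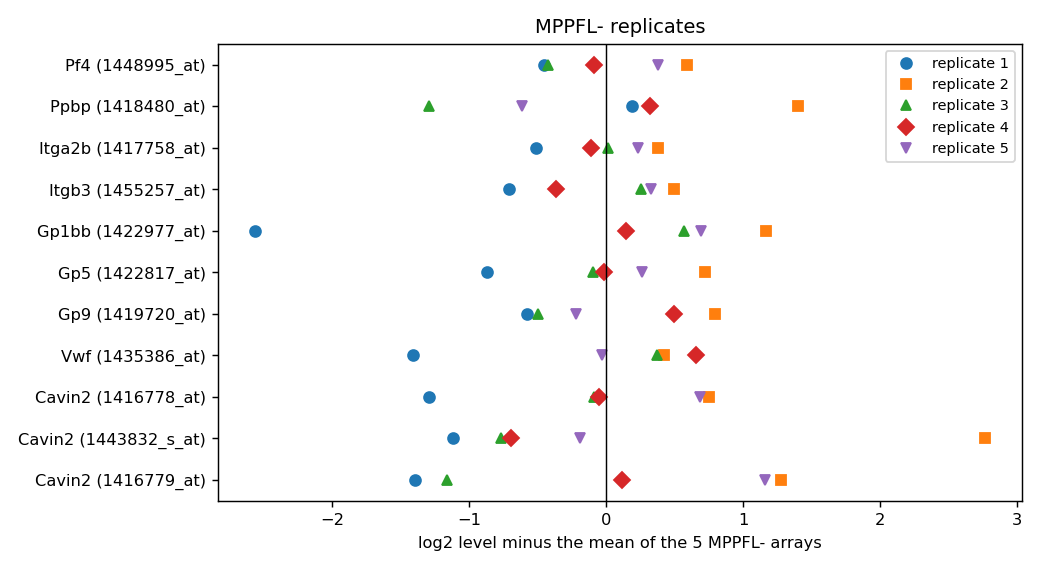
Log2 level of each MPPFL- array minus the mean of the 5 MPPFL- arrays, for the 11 probe sets above the floor, with 1 symbol per replicate. Replicate 1 lies at the low end in all rows but that of Ppbp and replicate 2 at the high end in all rows but that of Vwf, with spreads from under 1 log2 unit (Itga2b) to over 3 (Gp1bb and a Cavin2 probe set).

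Other genes of the megakaryocyte line did not move as a block. Of 20 transcription factors and receptors that drive megakaryocyte formation, 19 were measured, on the probe set with the highest mean per gene. In MPPFL+ against MPPFL- 2 were higher and 5 lower (over all genes 10.4% were higher and 5.13% lower), with a list median of -0.36. Gata1 (-4.45, adjusted p = 5.54e-08), Runx1 (-2.27), a core factor of stem cells and megakaryocytes, and Gata2 (-2.01), a factor of stem and mast cells, fell, while Ets1 (2.95) and Mafk (1.01) rose. In CMP against MPPFL- 2 were higher and 8 lower (over all genes 10.3% and 18.1%), with a median of -0.47. Gata1 rose by 2.46 (adjusted p = 3.64e-05) to 10.98, and Mafg, a partner of Nfe2, by 0.64, whereas Mecom (-4.62) and Erg (-2.48), factors of stem cells, and Lmo2 (-1.29) fell. In GMP against CMP 2 were higher and 14 lower (over all genes 12.9% and 7.23%), with a median of -1.09.

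Further platelet receptors and signalling genes, 27 of 30 measured, went both ways. In MPPFL+ against MPPFL- 2 were higher and 6 lower, with a median of 0. Gng11 (-2.07), a G protein subunit, Treml1 (-1.19) and Rgs18 (-1.18), a regulator of G protein signalling, fell, and Tbxa2r, the thromboxane receptor, rose by 2.61 and F2rl3, a thrombin receptor, by 1.34. In CMP against MPPFL- 7 were higher and 7 lower, with a median of -0.01. Treml1 rose by 2.32, Cd9, a tetraspanin, by 2.18 and Clec1b by 1.81, while Esam (-2.46), an adhesion molecule also known from stem cells, Rgs18 (-2.10) and Gng11 (-1.96) fell. From CMP to GMP 1 was higher and 10 were lower, with a median of -0.32. P2ry12, the target of common antiplatelet drugs, was at the floor in MPPFL-, MPPFL+, CMP and GMP.

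Granule, enzyme and cytoskeleton genes of platelets, 22 of 24 measured, also split. In MPPFL+ against MPPFL- 3 were higher and 6 lower, with a median within 0.1 of 0. Rab27b (-5.01), a granule trafficking protein, Pcdh7 (-2.74) and Selp (-2.30), which encodes P-selectin, fell, while Slc35d3, needed for dense granules, rose by 2.12, Tgfb1 by 1.81 and Clu by 1.32. In CMP 3 were higher and 8 lower than in MPPFL-, with a median of -0.15. F13a1, the A chain of factor XIII, which is also made by monocytes, rose by 8.37 and Clu by 2.42, Thbs1 was called at the floor (0.06), and Selp (-3.96), Mmrn1 (-2.98), a granule protein, and Mylk (-1.94) fell. From CMP to GMP 2 were higher and 8 lower, with a median of -0.52. Tubb1 averaged 2.29 in MPPFL- and 3.16 in CMP, and of the CMP arrays only replicate 1 was clearly over the floor, at 4.97.

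Markers of other cells were set beside these results. Of 15 erythroid markers 12 were measured. Their mean over the list ran from 3.80 to 4.34 on the MPPFL- arrays, 3.45 to 3.96 in MPPFL+, 5.64 to 6.56 in CMP and 3.12 to 3.91 in GMP. In MPPFL+ against MPPFL- 0 were higher and 2 lower (Aqp1, a water channel, -2.62 and Klf1, the erythroid master factor, -1.84), and in CMP 7 rose and 1 fell, with Car1 (7.53), Ermap (6.21) and Klf1 (4.68) rising most and Car2 (-2.32) falling. From CMP to GMP 0 rose and 7 fell. Hba-a1, a globin gene, was at the floor in all 4. The erythroid list thus moved with the platelet genes into CMP and out of GMP, and its part in those results was not tested.

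Mast cell and basophil markers, 9 of 10 measured, had list means of 4.96 to 5.72 in MPPFL-, 3.95 to 4.12 in MPPFL+, 6.60 to 6.89 in CMP and 6.49 to 7.05 in GMP. In MPPFL+ 4 fell and 0 rose, led by Cpa3 (-5.53), Hdc (-2.60), which makes histamine, and Ms4a2 (-2.06), part of the IgE receptor. In CMP 4 rose and 0 fell against MPPFL-, led by Ms4a2 (4.64), Hdc (3.84) and Mcpt8 (3.43), and in GMP against CMP 2 were higher and 2 lower. The connective tissue protease Mcpt4 was at the floor in MPPFL- and MPPFL+. Stem cell markers, 12 of 14 measured and 4 of the 14 shared with another list, had list means of 10.04 to 10.18 in MPPFL-, 8.66 to 9.21 in MPPFL+, 6.88 to 7.58 in CMP and 5.53 to 5.60 in GMP. In MPPFL+ 6 were lower, among them Tek (-4.48), the angiopoietin receptor, Slamf1 (-3.85), also known as CD150, and Ctnnal1 (-1.54), and 1, Cd34 (0.90), was higher. In CMP 11 fell and 0 rose against MPPFL-, with Fgd5 (-5.83), Procr (-5.79) and Hlf (-4.84) falling most, and 7 fell and 0 rose from CMP to GMP. The stem cell list was therefore lower in CMP than in MPPFL-, opposite to the platelet genes, and lower in MPPFL+, in the same direction. The part of either list in those results was not tested.

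Endothelial markers were read because Vwf is also made by the cells that line blood vessels. All 14 were measured, with list means of 4.42 to 4.57 in MPPFL-, 4.21 to 4.74 in MPPFL+, 4.14 to 4.29 in CMP and 3.72 to 3.86 in GMP. The defining genes Cdh5, Kdr and Sox17 lay within 0.1 of the floor on average in MPPFL-, MPPFL+, CMP and GMP. In MPPFL- 5 of the 14 had a mean over 5, among them Tek (8.36), Tie1 (6.71) and Emcn (6.05), and their part in the Vwf result was not tested. In MPPFL+ 3 were higher (Pecam1 2.23, Egfl7 1.39 and Cldn5 1.24) and 1 lower (Tek), in CMP 1 was higher (Pecam1 2.38) and 3 lower (Emcn -2.76, Tie1 -2.30 and Tek -1.89) than in MPPFL-, and from CMP to GMP 1 was higher and 3 lower.

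The genes with the most similar pattern were found by the Pearson correlation over the 8 population means, among 4729 genes whose means spanned at least 2 log2 units. These correlations describe 8 points that share arrays and are given without a test. Gp5 and Cavin2 were each other's closest gene and Gp1bb ranked 4 for both (0.989 and 0.988). All of these lay near the floor outside MPPFL- and CMP, so their correlations rest mainly on those populations. The genes named from here on are the closest that are not members. They were 4933431E20Rik (0.999), Gdf3 (0.996 and 0.997) and Mfsd2b (0.985 and 0.986) for both Gp5 and Cavin2. Mfsd2b, a transporter of sphingosine-1-phosphate in platelets and red cells, averaged 6.83 in MPPFL-, 10.3 in CMP and at most 3.11 elsewhere, and was also among the closest for Gp1bb (0.996) and Vwf (0.981). For Gp1bb Aldh1a7 (0.999) and Gna14 (0.996) were closer. Pf4 was most like Dusp3 (0.978), Apoe (0.947) and Icam4 (0.946), and Ppbp most like the erythroid genes Aqp1 (0.949) and Car1 (0.943) and like Clec1b (0.939). Vwf was closest to Icam4 (0.984), and Gp9 to Exoc3l2 (0.975), Septin8 (0.953) and Parm1 (0.944). Itga2b was most like Muc13 (0.927), Icam4 (0.913) and Itga5 (0.881), with Vwf, at 0.884, ranking 3 among all genes. Itgb3 had the least similar neighbours, Ms4a2 (0.866), Calml4 (0.863) and Csrp3 (0.852). All of them were highest in CMP and next in GMP, though Csrp3 averaged only 4.35 in GMP.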

How the data were processed

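Expression had been measured on 26 arrays of 8 populations. Per the labels, RNA was extracted with Trizol and labelled with biotin. The authors deposited log2 values, used here unchanged, with a normalization not given in the sources used here. Of the 45101 probe sets, 64 controls were left out, and of the remaining 45037 the platform annotation names 34945 with 1 gene, 932 with several and 9160 with none. Groups follow the titles. All arrays were fitted with limma 3.58.1 in R 4.3.3 (a mean per population, lmFit, then eBayes) and 18 residual degrees of freedom, and p-values were Benjamini-Hochberg adjusted over all probe sets (threshold 0.05, two-sided). The fit was tested on simulated data. Exact permutation tests and tables used Python 3.11.15 with scipy 1.17.1.

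All probe sets of the 10 genes are named whatever their test. From each of 7 lists (megakaryocyte regulators, platelet receptors and signalling, platelet granule, enzyme and cytoskeleton, and erythroid, endothelial, stem cell, and mast cell and basophil markers), up to 3 rising and 3 falling genes that passed in MPPFL+ or CMP against MPPFL- are named. A further list of 5 genes checked the labels, of which Kit fell in CMP against MPPFL- (-1.22). The members and lists were chosen with earlier results of these data known. A fold is given as "at least" where no array of the lower population exceeded the floor by more than 1 log2 unit, or all were within 0.1 of the recurring low value of the probe set, and such bounds leave out sampling error. Alternatives were quantile normalization, a filter on dim probe sets, a raised floor of 4, other eBayes settings, array weights, smaller fits, a replicate block, covariates and leaving out arrays. Correlations between the deviations of same-numbered replicates lay between -0.231 and 0.218, with at most 1 of 3 over 0.1 in each comparison. All were above 0 in MPPFL+ against MPPFL-, DN1 against CLP and DN3 against DN2. Whether the numbers pair samples is therefore not settled. The number of arrays limits the precision.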

Additional observations from a re-analysis of the deposited data

Results flagged for a closer look

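In the MPPFL- group of 5 arrays, each of the 11 platelet probe sets above the floor was examined for an array far from the others, and 2 had one, where chance gives about 1 in 20. The 11 probe sets share the same 5 arrays, so they are not separate trials and that rate is no test. Gp1bb (1422977_at) had replicate 1 at 3.31, with the other 4 arrays between 6.02 and 7.04, and the gap took 0.726 of the range against a critical value of 0.71. Cavin2 (1443832_s_at) had replicate 2 at 6.54, with the others between 2.66 and 3.59, and the gap took 0.761 of the range. The lowest of these others lay close to the recurring low value of the probe set, 2.52, where spread is limited. Replicate 1 and replicate 2 are also the arrays at the low and the high end for most other platelet probe sets.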

How the results depend on the processing

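The counts of called platelet probe sets stayed within 1.5 times the reported count under most settings, and no called value reversed. Without the arrays with Xist, 4 uncalled differences over 0.1 in size changed sign: in DN1 against CLP Vwf went from 0.80 to -0.39, and in DN2 against DN1 Vwf went from -0.63 to 0.67, Gp9 from -0.63 to 0.29 and Itgb3 from -0.10 to 0.36. The exceptions were as follows. In CMP against MPPFL- the 11 calls became 4 with only the 2 populations in the fit. In DN1 against CLP the 1 call became 2 with the filter on dim probe sets, with values under 4 set to 4, with the actin covariate and without the arrays with Xist, and 0 with only the 2 populations. In DN2 against DN1 the 1 call became 0 with array weights and with only the 2 populations, and 2 without the arrays with Xist. The setting without Xist arrays was chosen after seeing the data. Leaving out each array in turn gave 7 to 9 calls in MPPFL+ against MPPFL-, 9 to 12 in CMP against MPPFL-, 9 to 11 in GMP against CMP, 8 to 9 in CLP against MPPFL- and 1 to 2 in DN1 against CLP. The replicate block, with numbers not known to pair the samples, gave 7, 9, 9 and 7 calls in the first 4 comparisons and 1 in each of the 3 thymic ones, and changed no direction. Of the calls, 7 of 9, 3 of 11, 8 of 10 and 7 of 9 in the first 4 comparisons passed under every setting run. The cause of these changes was not tested. The smaller fits also hold fewer arrays and fewer residual degrees of freedom. Levels near the floor limit what can be said of Ppbp, Gp6 and the dim Itgb3, Gp1bb and Cavin2 probe sets.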
